A study of Homo sapiens with 10 samples.

Results

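Expression of 8 scavenger receptor genes (OLR1, MSR1, CD36, SCARB1, SCARB2, SCARA3, SCARA5 and STAB1) was examined in chromate transformed bronchial epithelial cells. Each gene was taken as the transcript cluster, the set of probes for one gene, that carries its symbol in the array annotation, and the cluster with the highest mean over the arrays was to be used where there were several. Each of the 8 genes had 1 cluster of its own, so no choice arose, and they are 8 of 18377 genes and 28869 clusters on the Affymetrix Human Gene 1.0 ST array. The genes were proposed with results of these arrays in view. OLR1 and SCARB1 are in the study's own lists of genes that changed on the same arrays, so their calls are not independent evidence.

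All cells came from BEAS-2B, an immortalized line of normal human bronchial epithelium. The Cr_large lines (3 arrays) and the Cr_small lines (3 arrays) were grown from large and small soft agar colonies of cells kept for 30 days in 0.5 µM potassium chromate, a Cr(VI) compound. The control lines (3 arrays) came from colonies that untreated cells formed on their own, and the parental BEAS-2B cells (1 array) were the starting culture. Growth in soft agar, which selects cells that divide without attachment, lasted 3 weeks, and each line was expanded from a single colony, so a line is 1 clone. No repeat of the exposure is described, so p-values measure the spread between lines and not between exposures. The exposure text of the labels stands on every array, and the titles and cell types separate the groups.

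Values are log2 intensities, and they had a median of 5.86 and quartiles of 4.91 and 7.73 over all clusters and arrays. The highest correlation of any array with another lay between 0.988 and 0.997, and no pair of arrays was identical. The epithelial keratins KRT7 and KRT8 were bright, with lowest values of 10.9 and 11.5, whereas KRT5, CDH1 and EPCAM did not exceed 5.54, 5.02 and 5.71. Of 7 measured epithelial markers KRT7, KRT8 and KRT18 were higher in the transformed lines, KRT8 by 1.68-fold (limma, adjusted p = 0.00505), and over all 18377 genes 7% were called higher and 7.57% lower. The brighter of 2 KRT18 clusters was used, and both were higher. The annotation gives both the same transcripts, so KRT18 was left out of the mean of the list. The mean of the other 6 markers was 7.82 to 8.42 in Cr_large, 7.48 to 8.10 in Cr_small and 7.35 to 7.45 in control lines, and 7.70 in parental cells. The largest difference among these 6 was that of KRT19, at 1.77, and it was not called (limma, adjusted p = 0.235). KRT19 varied widely, at 7.93 ± 1.70 in transformed lines (SD, n = 6) and 6.16 ± 0.10 in control lines (SD, n = 3). The means of the list therefore lean on 1 uncalled gene. The part of these markers in the results was not tested. Because scavenger receptors are best known from other cells, markers of those were examined too. None of 9 measured macrophage markers and none of 8 endothelial markers was called in the Cr(VI) transformed lines against control lines. By their mean over the arrays 7 of the 9 and 7 of the 8 lay under the median of all values, where differences are harder to detect. The mean of the macrophage list was 5.18 to 5.30 in Cr_large, 5.24 to 5.28 in Cr_small and 5.21 to 5.32 in control lines, and 5.25 in parental cells. PTPRC, the common leukocyte antigen, did not exceed 4.66. Brighter members of the macrophage list were CD14, between 5.66 and 6.82, and TYROBP, between 6.54 and 6.85.

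Scavenger receptors are surface or lysosomal proteins that bind modified lipoproteins and many other charged ligands, such as dying cells, bacterial products and fatty acids. They do not share a fold: the classes are set by structure, from the collagen-like trimers of class A and the paired membrane anchors of class B to the lectin-like class E. Macrophages, endothelium and liver are their best studied sites, and SCARB1 and SCARB2 are also found in many epithelia.

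In the Cr(VI) transformed lines as a whole, 2 of the 8 genes, OLR1 and SCARB1, were higher than in control lines and 2, SCARB2 and SCARA3, were lower at an adjusted p under 0.05. The other 4 did not pass. Over all clusters 5.33% were called higher and 5.72% lower in the same comparison, and over all 18377 genes 7% and 7.57%. The median change of the 8 genes was 0.01, against 0.03 over all 18377 genes. OLR1 and SCARB1 changed by several-fold and by more than 2-fold, and SCARB2 and SCARA3 by less than 1.3-fold.

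**Figure D1:**
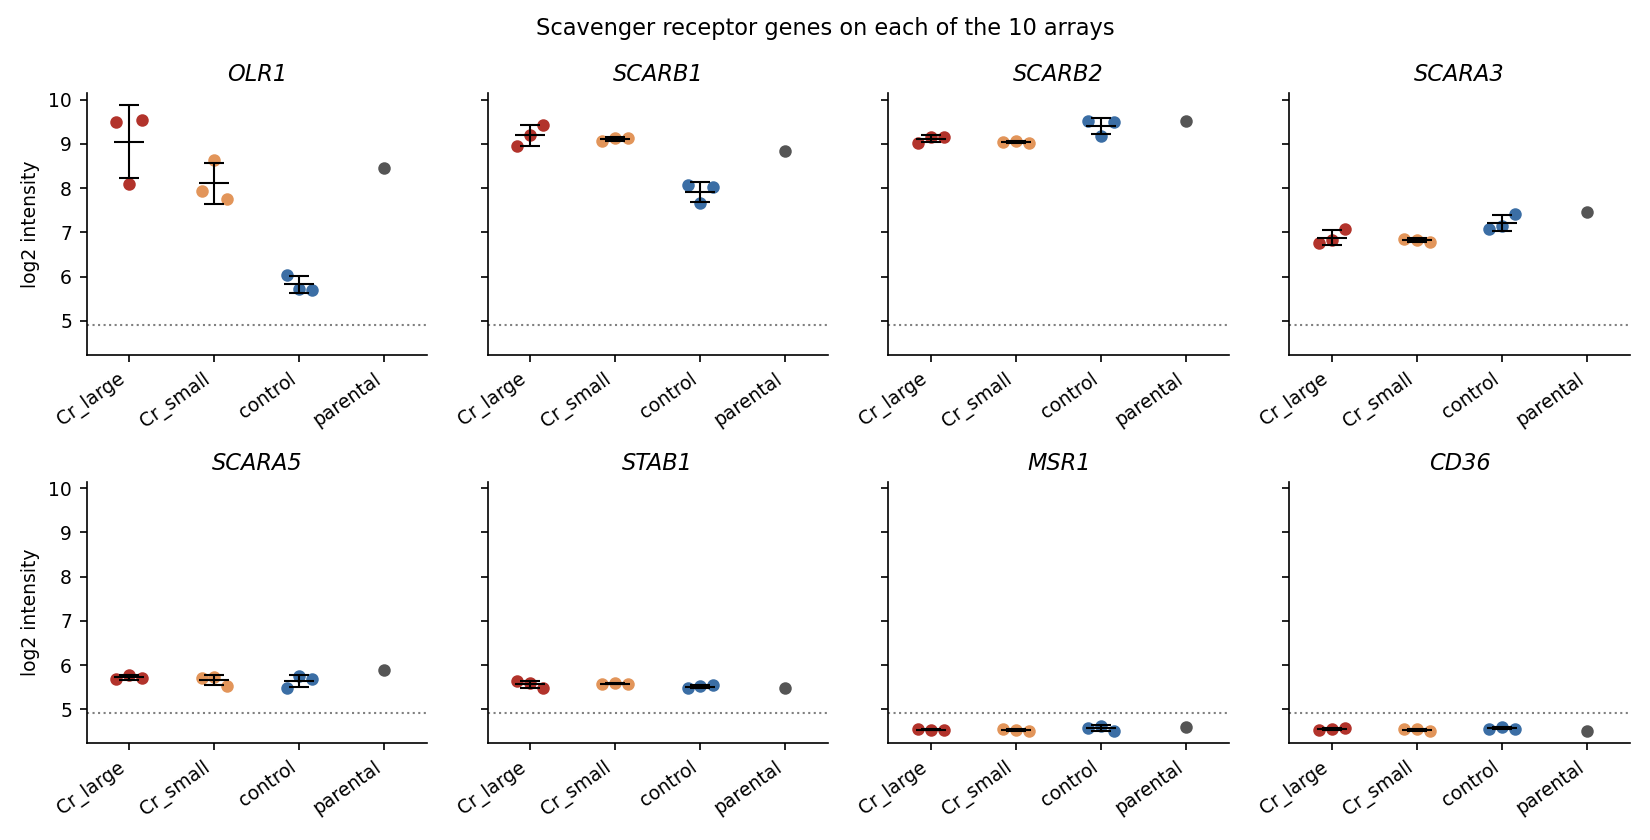
Log2 intensity of each scavenger receptor gene (y axis) on each array, by group (x axis). Points are single arrays, bars are the mean ± SD of 3 lines, and the dotted line is the lower quartile of all values, 4.91. The 6 transformed lines sit above the 3 control lines for OLR1 and SCARB1, while MSR1 and CD36 lie under the dotted line on all 10 arrays.

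OLR1 encodes LOX-1, a lectin-like receptor of class E that takes up oxidized LDL and is known chiefly from endothelium. Its log2 intensity was 9.50, 8.10 and 9.54 in Cr_large lines, 7.94, 8.63 and 7.75 in Cr_small lines, 6.05, 5.73 and 5.70 in control lines and 8.46 in parental cells. The 6 transformed lines all lay above the 3 control lines, with a gap of 1.70 between the groups. Of all clusters, 8.85% had the 6 transformed lines above the 3 control lines, and 7.84% had them below. RNA came from whole cultures, so fewer expressing cells and less RNA per cell cannot be told apart. OLR1 averaged 8.58 ± 0.79 in the transformed lines (SD, n = 6) and 5.83 ± 0.19 in control lines (SD, n = 3). The difference was 2.75 ± 0.34 (SE), a 6.74-fold higher level with a 95% interval of 3.90 to 11.7 (limma, adjusted p = 0.00236).

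OLR1 stood at different places among the values of an array. In transformed lines it was brighter than 75.2% to 91.8% of clusters, in control lines than 47.2% to 54.1%, and in parental cells than 82.8%. The normalization adds a constant of 16 to each intensity, and with it taken off OLR1 was 8.97-fold higher in the transformed lines.

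Set against control lines, OLR1 was 9.33-fold higher in Cr_large lines (limma, adjusted p = 0.00345) and 4.86-fold higher in Cr_small lines (limma, adjusted p = 0.0130). SCARB1 was also called in both groups, and no scavenger receptor was called lower in either. Background shares for Cr_large were 3.33% of clusters higher and 4.11% lower, and for Cr_small 3.79% higher and 4.47% lower. OLR1 in Cr_large exceeded Cr_small by 0.94 ± 0.40 (SE) with a 95% interval of 0.03 to 1.85. Among the 8 genes only OLR1 had a p under 0.05 between the colony sizes before adjustment, and it did not pass after it (limma, adjusted p = 1.00). The ranges of both groups overlapped, since the second Cr_large line was at 8.10 and the second Cr_small line at 8.63. Over all clusters the share called between Cr_large and Cr_small was 0%, while 1266 clusters had an unadjusted p under 0.05 in limma and 1122 in the methods' t-test.

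SCARB1, the class B receptor SR-BI, binds HDL and mediates selective uptake of its cholesteryl esters. Log2 intensities were 8.96, 9.20 and 9.42 in Cr_large lines, 9.07, 9.14 and 9.13 in Cr_small lines, 8.07, 7.66 and 8.03 in control lines and 8.83 in parental cells. All 6 transformed lines lay above the control lines and above parental cells, with a gap of 0.89 to the nearest control line. SCARB1 averaged 9.15 ± 0.15 in transformed lines (SD, n = 6) and 7.92 ± 0.23 in control lines (SD, n = 3), which is 2.35-fold higher with a 95% interval of 1.94 to 2.84 (limma, adjusted p = 0.000862). It was 2.42-fold higher in Cr_large (limma, adjusted p = 0.00208) and 2.29-fold higher in Cr_small (limma, adjusted p = 0.00272). Between Cr_large and Cr_small the difference was 0.08, with a 95% interval of −0.24 to 0.40.

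**Figure D2:**
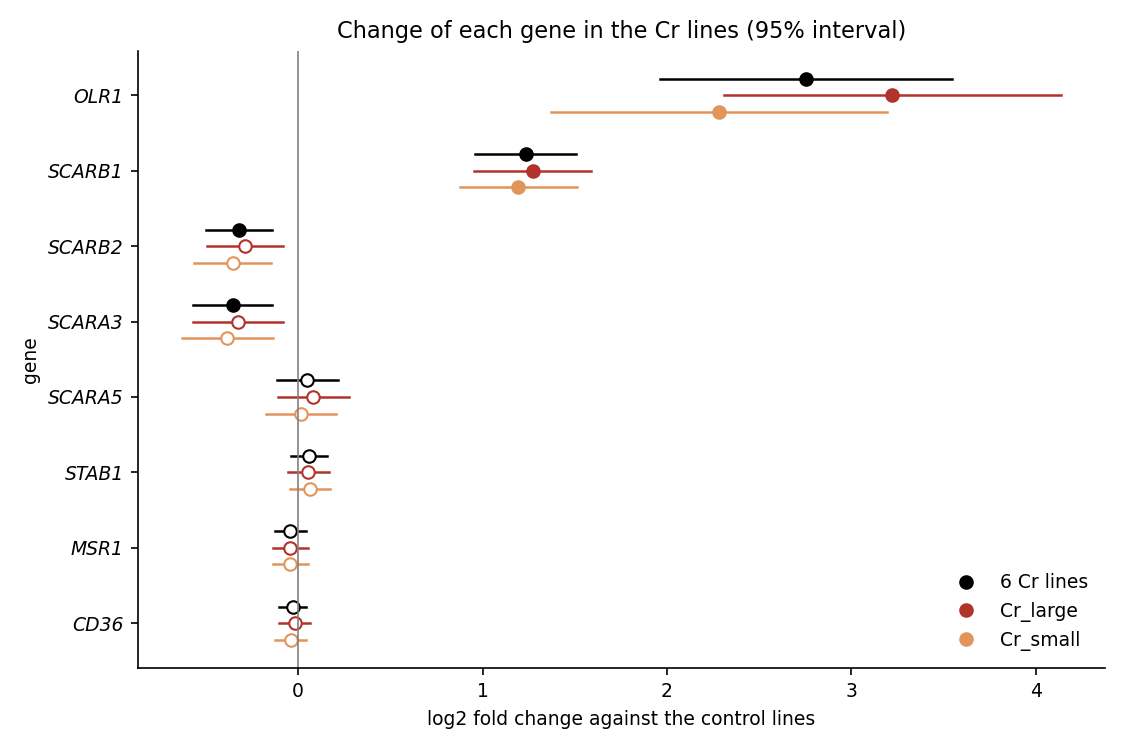
Log2 fold change of each gene (x axis) against the 3 control lines, for the 6 transformed lines together, Cr_large and Cr_small. Points are limma estimates, lines are 95% intervals, and filled points passed an adjusted p under 0.05. OLR1 at 2.75 and SCARB1 at 1.23 stand right of 0 in all 3 comparisons, and the intervals of SCARA5, STAB1, MSR1 and CD36 cross 0.

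SCARB2 encodes LIMP-2, a class B protein of the lysosomal membrane that carries glucocerebrosidase to lysosomes and serves as a receptor for some enteroviruses. It was at 9.03, 9.16 and 9.15 in Cr_large lines, 9.05, 9.06 and 9.02 in Cr_small lines, 9.52, 9.18 and 9.49 in control lines and 9.52 in parental cells. The groups did not overlap, but the second control line was only 0.02 above the highest transformed line. SCARB2 averaged 9.08 ± 0.06 in transformed lines (SD, n = 6) and 9.40 ± 0.19 in control lines (SD, n = 3), 1.25-fold lower with a 95% interval of 1.10 to 1.41 (limma, adjusted p = 0.0357). Neither Cr_large (1.22-fold lower, limma, adjusted p = 0.107) nor Cr_small (1.28-fold lower, limma, adjusted p = 0.0515) passed alone. The call was lost on leaving out any line other than the second control line, and the adjusted p over these 9 fits ran between 0.00344 and 0.140.

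SCARB2 was the only called member whose start is in the promoter sequences used here, which come from RefSeq genes of GRCh38.p14 and matched 3 of the 8 members. The 250 bases before its start are shown with those of STAB1 and CD36, which were not called, so that the base composition of the windows can be set side by side. The windows are chr4:76213825-76214074 on the minus strand for SCARB2, chr3:52495088-52495337 on the plus strand for STAB1, and chr7:80601957-80602206 on the plus strand for CD36, the outermost of its 6 starts. Capitals mark matches to a GC box (GGGCGG) in the SCARB2 and STAB1 windows, and to a TATA box (TATAAA) in the CD36 window, all on the reverse strand.
SCARB2: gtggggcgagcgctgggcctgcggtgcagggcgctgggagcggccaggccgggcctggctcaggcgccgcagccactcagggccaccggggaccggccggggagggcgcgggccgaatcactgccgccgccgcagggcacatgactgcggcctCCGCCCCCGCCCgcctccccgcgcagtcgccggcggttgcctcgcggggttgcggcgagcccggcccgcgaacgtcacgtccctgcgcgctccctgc
STAB1: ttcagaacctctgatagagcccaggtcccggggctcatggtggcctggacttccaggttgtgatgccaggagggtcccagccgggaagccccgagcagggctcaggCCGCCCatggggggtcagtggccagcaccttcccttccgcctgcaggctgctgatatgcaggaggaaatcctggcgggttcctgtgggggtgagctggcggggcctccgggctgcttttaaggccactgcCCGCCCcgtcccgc
CD36: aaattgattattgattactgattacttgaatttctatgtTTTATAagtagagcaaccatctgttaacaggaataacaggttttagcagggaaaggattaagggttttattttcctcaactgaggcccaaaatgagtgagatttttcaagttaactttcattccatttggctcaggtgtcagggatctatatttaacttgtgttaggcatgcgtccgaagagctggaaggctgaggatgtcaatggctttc

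The SCARB2 window was 80.8% G or C with 37 CpG dinucleotides, the STAB1 window 67.6% with 11, and the CD36 window 37.2% with 2. Over 35116 windows of the same length the median was 58.0% G or C (quartiles 46.4 and 68.0) and 11 CpG (quartiles 3 and 23). SCARB2 and STAB1 each had 2 GC boxes, which 42.6% of windows hold at least once, and those of SCARB2 were adjacent. CD36 had 1 TATA box, which 10.7% of windows hold. Both strands were also searched for CCAAT (32.0% of windows) and for CACGTG, the E-box known from lysosomal genes (6.34% of windows), and neither was in the 3 windows. A match describes letters only and is not a binding site.

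SCARA3, a class A member known as a cellular stress response protein that lessens oxidative damage, was the other gene that fell. Its log2 intensity was 6.75, 6.82 and 7.07 in Cr_large lines, 6.86, 6.84 and 6.78 in Cr_small lines, 7.08, 7.13 and 7.41 in control lines and 7.45 in parental cells. The third Cr_large line was 0.01 under the lowest control line. SCARA3 averaged 6.85 ± 0.11 in transformed lines (SD, n = 6) and 7.21 ± 0.18 in control lines (SD, n = 3), 1.28-fold lower with a 95% interval of 1.10 to 1.48 (limma, adjusted p = 0.0465). Taken alone, Cr_large (1.25-fold lower, limma, adjusted p = 0.121) and Cr_small (1.30-fold lower, limma, adjusted p = 0.0694) did not pass. Among the 9 fits that left out a line, the call held only without the third Cr_large line, and the adjusted p ran between 0.0209 and 0.148.

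The remaining 4 genes were dim. SCARA5, a class A receptor that takes up ferritin, ranged between 5.49 and 5.88 over the 10 arrays and differed by 0.05, with a 95% interval of −0.12 to 0.21 (limma, adjusted p = 0.762). STAB1, a class H receptor of liver sinusoidal endothelium and macrophages, lay between 5.48 and 5.64, under the median of all values on every array (difference 0.06, 95% interval −0.04 to 0.15, limma, adjusted p = 0.448). MSR1, the macrophage class A receptor for acetylated LDL, was between 4.52 and 4.64 (difference −0.04, 95% interval −0.13 to 0.04). CD36, the class B receptor for fatty acids and thrombospondin, was between 4.51 and 4.61 (difference −0.03, 95% interval −0.10 to 0.04). Both were under the lower quartile of all values on all arrays, so a difference in either would be hard to detect at this signal.

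The parental array was then set beside the lines, as a fold with no test because it is 1 array. In the mean of the 6 transformed lines none of the 8 genes was past 2-fold of parental cells, where 0.682% of clusters were past 2-fold higher and 1.16% lower. In the mean of the control lines OLR1 alone was past 2-fold, at 6.21-fold below parental cells, where 0.592% of clusters were past 2-fold higher and 0.533% lower. The mean of the transformed lines differed from parental cells in OLR1 by 0.12, with 3 of 6 lines above, by 0.59 in Cr_large and by −0.35 in Cr_small. Single lines went further, since 2 of the 3 Cr_large lines were 1.04 and 1.08 above parental cells in OLR1, which is past 2-fold. The parental level of OLR1 thus lay inside the range of the transformed lines and above all control lines.

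**Figure D3:**
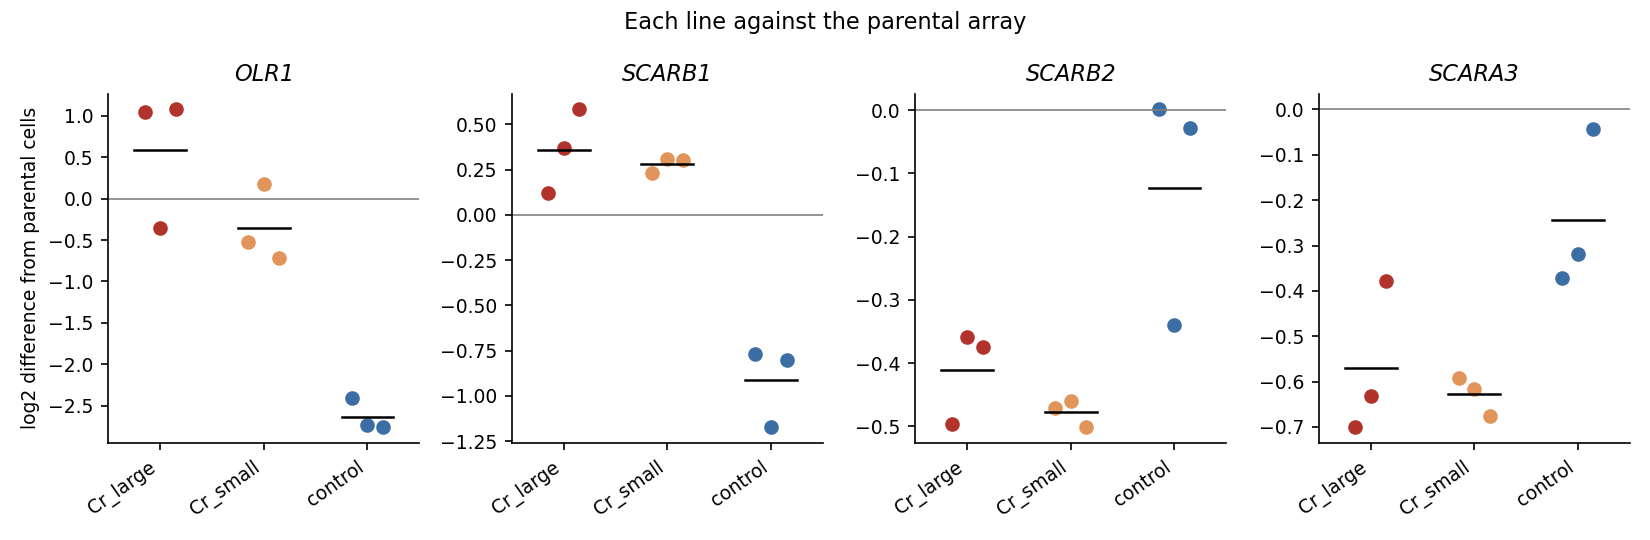
Log2 difference of each line from the 1 parental array (y axis, own scale per gene) for the 4 genes called in transformed against control lines, by group (x axis). Points are lines and bars are group means. For OLR1 the control lines lie near −2.64 and the transformed lines on both sides of 0, and for SCARB2 and SCARA3 all 6 transformed lines lie below 0.

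SCARB1 was likewise lower in control lines than in parental cells, by 1.88-fold in the mean and in 3 of 3 lines, of which the second was past 2-fold. In the transformed lines it was 1.25-fold above parental cells, in 6 of 6 lines. Among all clusters 23.6% had the 6 transformed lines above the parental array and 19.6% had them below. SCARB2 in transformed lines was 1.36-fold below parental cells in 6 of 6 lines, and in control lines 1.09-fold below, in 2 of 3 lines. SCARA3 in transformed lines was 1.51-fold below in 6 of 6 lines, and in control lines 1.18-fold below, in 3 of 3 lines. Of the genes that were not called, SCARA5 and MSR1 also had 6 of 6 transformed lines below parental cells, by 1.14-fold and 1.04-fold in the mean. The same parental array stands in all these differences.

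Over the 10 arrays OLR1 followed SCARB1 with a Pearson r of 0.892, and SCARB2 followed SCARA3 with 0.857. These are descriptions over arrays that share the group difference. The genes most like OLR1 over the 10 arrays were PTPN13 (r = 0.984), RICTOR (0.972), CEP295 (0.956), PRR13 (0.951) and TCEANC2 (0.943). PTPN13, a protein tyrosine phosphatase, was at 6.75 ± 0.29 in transformed lines, 5.53 ± 0.16 in control lines and 6.82 in parental cells. SCARB1 was most like HTRA2 (r = 0.982), MIEF2 (0.978), IL7R (0.972), USP28 (0.971) and L1CAM (0.969). L1CAM, a cell adhesion molecule, was at 9.41 ± 0.13 in transformed lines, 7.21 ± 0.19 in control lines and 8.99 in parental cells. For SCARB2 the closest were SCAND2P (0.964), GALNT2 (0.962), RAB11FIP1 (0.961), SNX33 (0.960) and GAB1 (0.959), and for SCARA3 RAD21 (0.949), DIAPH3 (0.948), KCNN4 (0.946), SNAP91 (0.945) and RTKN2 (0.938).

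The genes around each member were listed to show whether a change was shared along the chromosome. The 10 measured genes on each side were taken, in the gene order of GRCh38.p14, and the counts stand beside the 7% higher and 7.57% lower over all genes. Around OLR1 on chromosome 12, from KLRF1 to MAGOHB, 2 of 20 neighbours were called higher and none lower, with a median change of 0.02. One was TMEM52B, the next measured gene, at 0.83 (limma, adjusted p = 0.0183), and the other EIF2S3B at 0.39 (limma, adjusted p = 0.0292). OLR1 lies in the natural killer gene complex, a cluster of C-type lectin genes. None of 18 measured lectin genes of that complex was called, and 17 of them were under the lower quartile of all values. Around SCARB1 on chromosome 12, from SNRNP35 to FZD10, 4 of 20 neighbours were called higher and none lower (median 0.08), and the next gene, DHX37, was at 0.66 (limma, adjusted p = 0.00260).

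**Figure D4:**
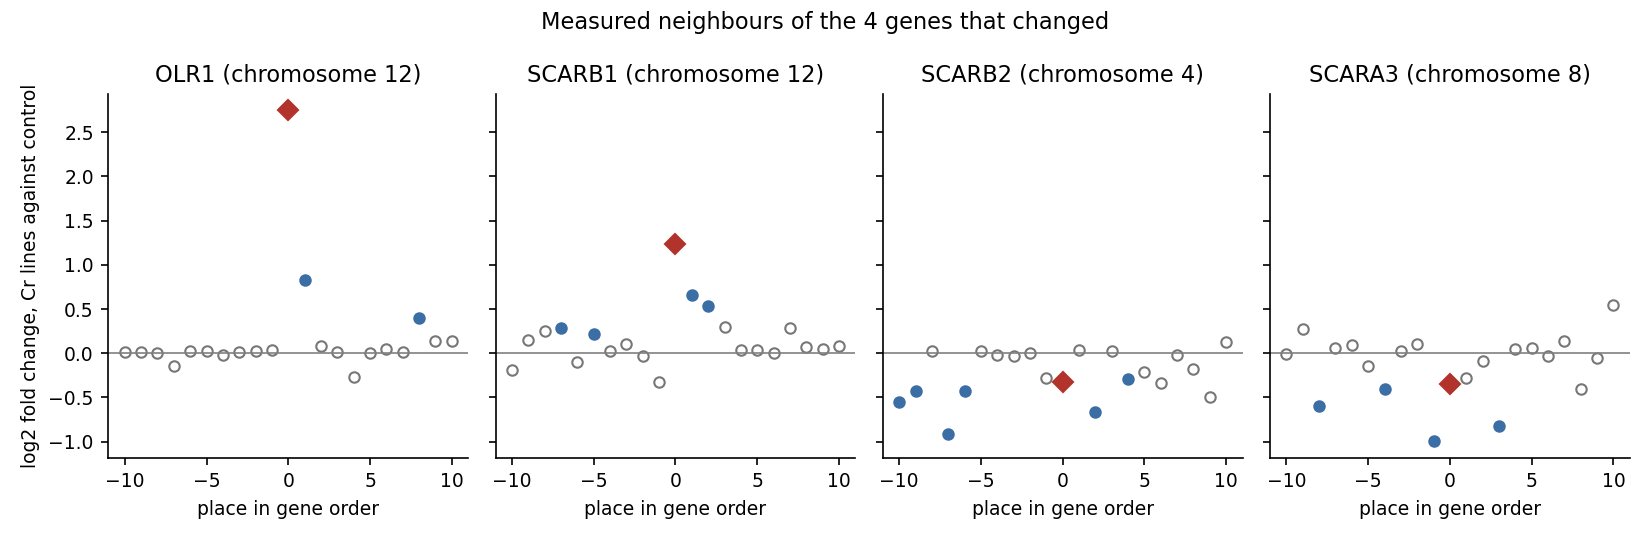
Log2 fold change of the transformed against the control lines (y axis) for each of the 4 called members (red diamonds) and its 10 measured genes on either side (x axis, place in gene order). Filled circles passed an adjusted p under 0.05. OLR1 at 2.75 stands far above its neighbours, whose highest is 0.83, whereas SCARB2 lies among 6 neighbours that were lower.

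For SCARB2 on chromosome 4, between CDKL2 and FRAS1, 6 of 20 neighbours were called lower and none higher, with a median of −0.20. The gene with the largest fall was NAAA, a lysosomal amidase, at −0.91 (limma, adjusted p = 0.000270), and the called neighbours also included SHROOM3 at −0.67 (limma, adjusted p = 0.00635). Around SCARA3 on chromosome 8, 4 of 20 neighbours were called lower and none higher (median −0.02). They included the next gene, CLU, which encodes the chaperone clusterin, at −0.997 (limma, adjusted p = 0.0335). SCARA5 lies close to SCARA3 and shares neighbours with it, and 5 of its 20 were lower. These were SCARA3 itself, then PTK2B, CLU and PBK, which are already counted around SCARA3, and HMBOX1. Among neighbours of the dim genes, 6 of 20 around MSR1 were lower, 2 higher and 2 lower around CD36, and 2 lower around STAB1.

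The genes that work beside these receptors were counted in lists chosen by function, beside the same shares over all genes (7% higher and 7.57% lower, median change 0.03). Of 21 other scavenger and related receptors, 1 was called lower and none higher, with a median change of 0.05. By their mean over the arrays 13 of the 21 lay under the median of all values and 6 under the lower quartile. Of the 18377 genes, 7118 and 2707 did so. A difference in such dim genes is harder to detect. It was MRC2, an endocytic collagen receptor, at 7.16 ± 0.30 in transformed lines (SD, n = 6), 8.26 ± 0.32 in control lines (SD, n = 3) and 8.28 in parental cells, 2.13-fold lower (limma, adjusted p = 0.0130). CXCL16, a chemokine that also binds oxidized LDL, was at 6.75 ± 0.31 in transformed lines and 6.13 ± 0.23 in control lines, which did not pass (limma, adjusted p = 0.0749).

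In the LDL receptor family 2 of 15 measured genes were higher and 1 lower (median −0.05). MYLIP, a ubiquitin ligase that sends the LDL receptor to degradation, was 1.79-fold higher (limma, adjusted p = 0.00976). LRP3 was 1.52-fold higher (limma, adjusted p = 0.0240), and LRP12 was 1.64-fold lower (limma, adjusted p = 0.00109). None of 12 measured partners of SCARB1 in HDL and cholesterol efflux was called (median 0.03), and ABCA1, the cholesterol exporter, was at 5.79 ± 0.26 in transformed lines and 5.51 ± 0.24 in control lines.

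Of 15 measured fatty acid uptake genes, 2 were higher and 1 lower (median 0.04). SLC27A2, a fatty acid transporter and very long chain acyl-CoA synthetase, was at 6.47 ± 0.62 in transformed lines and 4.96 ± 0.08 in control lines, 2.84-fold higher (limma, adjusted p = 0.0283), and at 8.02 in parental cells. SLC27A1 was 1.23-fold higher (limma, adjusted p = 0.0472), and ACSL4, an acyl-CoA synthetase for arachidonate, was 1.66-fold lower (limma, adjusted p = 0.000736). SLC27A1 stood at 6.33 in transformed lines, 6.03 in control lines and 5.83 in parental cells, and ACSL4 at 10.6, 11.4 and 10.5. None of 17 measured lysosomal genes listed beside SCARB2 was called (median 0.11). LAMP1 was 1.26-fold higher (limma, adjusted p = 0.0829) and LAMP2 1.21-fold lower (limma, adjusted p = 0.128), neither past the threshold. Among 10 measured genes of ferritin and transferrin iron uptake, listed beside SCARA5, 1 was higher and 1 lower (median 0.04). STEAP3, a ferrireductase, was 1.32-fold higher (limma, adjusted p = 0.0466) and SLC11A2, an iron transporter, 1.15-fold lower (limma, adjusted p = 0.0367). STEAP3 stood at 7.42 in transformed lines, 7.02 in control lines and 6.72 in parental cells, and SLC11A2 at 7.43, 7.64 and 7.71.

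**Figure D5:**
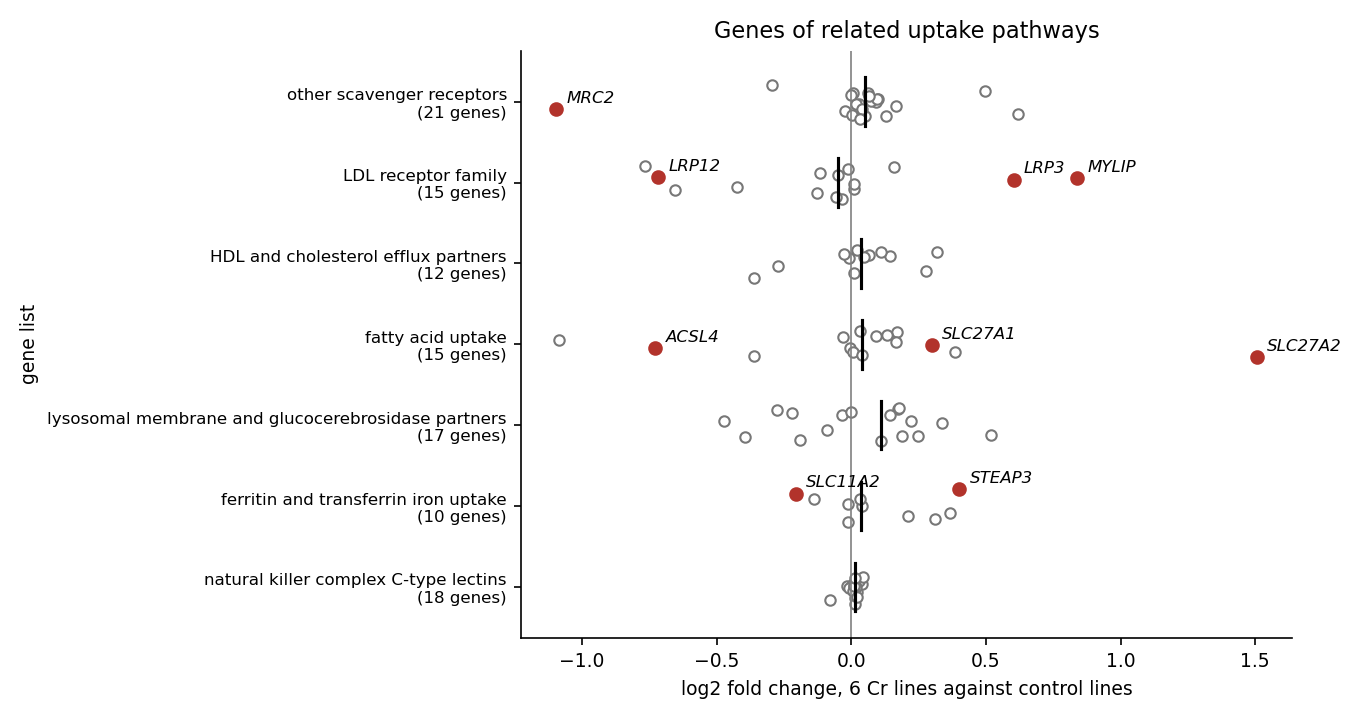
Log2 fold change of the transformed against the control lines (x axis) for the measured genes of 7 lists (y axis), each circle a gene and each bar the list's median. Filled circles, which are named, passed an adjusted p under 0.05. The medians lie between −0.05 and 0.11, and no list has more than 3 named genes.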

How the data were processed

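RNA of 10 BEAS-2B cell cultures was hybridised to Affymetrix Human Gene 1.0 ST arrays. The authors made the deposited intensities with RMA16 in GeneSpring, with background correction, quantile normalization and summary per transcript cluster, and the values are linear (20.0 to 16979.5). RMA16 adds a constant of 16, so changes in dim genes come out smaller. Here log2 was taken. Precision is limited by there being 10 arrays.

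Clusters were named by the array annotation. A single symbol stood on 19310 of 28869 clusters, 1752 carried several, and 7807 are unnamed here. A gene in a list was taken as its cluster with the highest mean over the 10 arrays. RefSeq genes of GRCh38.p14 gave the gene order (18346 genes placed) and the promoter windows.

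Means of the 4 groups were fitted in limma 3.58.1 (R 4.3.3), with 6 residual degrees of freedom and 1.96 prior degrees of freedom, and with Benjamini-Hochberg adjustment over all clusters. The threshold was an adjusted p of 0.05. Parental cells, with 1 array, were compared by fold only, past 2-fold. The members and lists were chosen with earlier results of these data known. Named in the text are all members, up to 3 called genes per list and direction, the 5 genes most correlated with each called member, markers, and, chosen after their values were seen, the neighbours given and the uncalled genes CXCL16, ABCA1, LAMP1 and LAMP2. The procedure was run on simulated data with independent noise, where only the largest of the added changes had to be recovered. That run does not bear on changes as small as those of SCARB2 and SCARA3.

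Line numbers in the titles were not treated as pairs in the main fit. Residual correlations of same-numbered lines ran from −0.145 to 0.0984 over 9 pairs. Differently numbered lines were not set beside them, so a weak pairing cannot be judged from these values. Alternatives were the methods' unpaired t-test, other moderation, filters, normalizations and samples, the constant taken off, a block on line number, and leaving out each line.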

Additional observations from a re-analysis of the deposited data

Results flagged for a closer look

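SCARA3 in the third Cr_large line was at 7.07, apart from the other 5 Cr(VI) transformed lines, which lay at 6.86 or below. The gap to the next line was 0.660 of the range of the 6 lines, above Dixon's 95% critical value of 0.625. The 6 lines were examined in this way for each of the 8 genes, and chance gives such a gap in about 1 in 20 groups. Without that line the adjusted p of SCARA3 was 0.0209 in limma, the lowest among the fits that left out a line.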

How the results depend on the processing

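OLR1 and SCARB1 stayed called higher in the transformed lines under all 20 alternatives, with folds of 6.15 to 8.97 and of 2.15 to 2.47. SCARB2 and SCARA3 stayed lower but were called in 9 of 20 alternatives each. For this comparison the fit of only the groups compared could not differ from the main fit, since it drops only the 1 parental array. It and the t-test with unadjusted p are counted among the 20 and among the 9. Of 632 values of members under alternatives, 582 kept direction and call, 12 changed sign with no call in either fit, 27 lost the call, 11 gained one, and none of those called turned round. Most of the 632 belong to comparisons that were not called in the main fit and had no call to lose. Of the 27 losses, SCARB2 and SCARA3 in all transformed lines gave 11 each. The rest were 1 in Cr_large and 2 in Cr_small for OLR1, and 1 in each for SCARB1.

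With the methods' t-test unadjusted, 6629 clusters were called in all transformed lines, 4819 in Cr_large and 5467 in Cr_small against control lines, and 1122 between Cr_large and Cr_small, and 5 members were called in Cr_small. After Benjamini-Hochberg the t-test called 2 members in the transformed lines (OLR1 and SCARB1), 0 in Cr_large and 0 in Cr_small, with 110 and 375 clusters. Limma with trend and robust moderation called 2 members in the transformed lines, and centring arrays on their median called 4 members in Cr_small. Leaving out each line gave 2 to 3 members and 1729 to 3163 clusters in the transformed lines, 2 to 3 and 1087 to 2071 in Cr_large, 1 to 3 and 1178 to 2402 in Cr_small, and 0 to 1 clusters between Cr_large and Cr_small. The lowest cluster counts against control lines came without the third control line, and without the first they were 1827 in the transformed lines, 1218 in Cr_large and 1336 in Cr_small. Each Cr_small line left out lowered the Cr_small count, to 1456 without the first, 1501 without the second and 1573 without the third, and the Cr_large count was 1332 without the second Cr_large line. Without the third control line OLR1 lost its call in Cr_small (adjusted p = 0.0532 in limma). With line number as a replicate block 3 members were called in the transformed lines, and SCARB2 had an adjusted p of 0.0725 in limma. The block changed no other call of a member. The cause of these differences was not tested. MSR1 and CD36 have no value where the dimmest 25% of clusters were left out.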
